A study of Saccharomyces cerevisiae with 68 samples.

Results

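This report describes 10 genes for cell wall mannoproteins of baker's yeast, Saccharomyces cerevisiae, in strains that lack subunits of the coactivator SAGA. They are CWP1, CWP2, TIR1, TIR2, TIR3, TIP1, CCW12, SED1, SPI1 and YGP1, chosen by gene symbol out of 5449 yeast genes with a probe set of their own on the arrays. Each of the 10 had 1 probe set, and all 10 passed the filter on dim genes in both kinds of RNA.

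The study set newly made RNA beside steady-state total RNA. The strains were a wild type (WT) and the deletions spt20Δ, spt7Δ, gcn5Δ, ubp8Δ, spt3Δ, spt8Δ, ubp8Δ gcn5Δ and spt3Δ gcn5Δ, all with FY406 as parent. Cells were taken at an OD600 of 0.8 from 100 mL of rich medium (YPD) at 30 °C, after 6 min with 5 mM 4-thiouracil, a base that marks the RNA made in that time. Fission yeast cells (S. pombe), labelled in the same way, were mixed in at 1 for every 3 budding yeast cells as a spike-in. The labels state 2 independent biological replicates of the deletion strains, while 4 arrays are held for 5 of them, so the p-values measure the spread between arrays, which may be in part technical.

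The wall of S. cerevisiae is an inner net of glucan and chitin covered by an outer layer of mannoproteins, many of which are carried to the surface on a glycosylphosphatidylinositol (GPI) anchor and then joined to glucan. Cells exchange these coat proteins with temperature, oxygen, acidity, growth phase and the stage of the cell cycle, so the genes are textbook cases of environmental control. SAGA is a complex with a structural core that needs Spt20 and Spt7, a histone acetyltransferase, Gcn5, a histone deubiquitinase, Ubp8, and the subunits Spt3 and Spt8, which contact the TATA-binding protein.

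The comparisons below rest on 28 arrays of newly made RNA and 30 of total RNA. WT had 6 arrays in each kind of RNA, and ubp8Δ, gcn5Δ and ubp8Δ gcn5Δ had 4. The strains spt3Δ, spt8Δ and spt3Δ gcn5Δ had 2, spt20Δ had 4 in newly made and 2 in total RNA, and spt7Δ had 4 in total RNA. The signal of a gene is given as a multiple of its array's median over S. cerevisiae genes, and a change is the log2 difference of a deletion from WT on that scale, so both are relative to the median gene. A gene passed where the adjusted p of limma over all 4086 genes tested was under 0.05. On the arrays used, the deleted genes of each strain were below all 6 WT arrays, by 4.01 to 9.64 on the log2 scale. In total RNA of spt20Δ, 2 arrays with SPT20 at WT level had been left out, so the result was fixed in advance there.

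Before the results, 2 features of the arrays need stating. By their S. pombe signals the arrays fell into 2 sets: WT replicates 7 and 8 and the spt3Δ gcn5Δ arrays formed the second set, and all others, with WT replicates 3 to 6, the first set. Rank correlations of S. pombe profiles were at least 0.892 within a set and 0.670 on average between sets in newly made RNA, and at least 0.973 and 0.853 in total RNA. The WT arrays of the second set differed from those of the first by amounts that varied with the gene. On the log2 scale the smallest difference was 0.01 for SED1 and the largest -2.29 for SPI1 in newly made RNA. In total RNA they were 0.007 for TIP1 and -1.79 for SPI1. How far other genes differed in this way was not counted. The change against WT arrays of the strain's own set alone is therefore given as the within-set value wherever it alters the reading. In addition, the nascent ubp8Δ gcn5Δ values appear to have been divided by 1 of 2 constants, 1.85 for 2869 yeast probe sets and 2.4975 for 2629, a ratio of 0.43 on the log2 scale. Undoing them moved the nascent ubp8Δ gcn5Δ change of TIR2 and SPI1 by -0.17 and that of the 8 other genes by 0.27, and the values are given where a call or the size depends on it. A further 2 arrays labelled as total RNA of spt20Δ, replicates 1 and 3, were left out because their labels are in doubt. Their signal of SPT20 itself was at WT level. CWP1 stood at 9.35 and 9.44 times the array median on them, which is within the WT range, and all spt20Δ values of total RNA rest on the 2 other arrays.

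Scaling to S. pombe in place of the median yeast gene moved the change of every gene in newly made RNA by -2.66 in spt3Δ gcn5Δ, -1.58 in ubp8Δ gcn5Δ, -1.12 in spt3Δ, -1.06 in spt20Δ, -0.47 in gcn5Δ, -0.31 in ubp8Δ and 0.16 in spt8Δ. In total RNA the shifts were -1.62 in spt3Δ gcn5Δ, -0.49 in spt20Δ, -0.45 in spt7Δ, -0.23 in ubp8Δ gcn5Δ, -0.07 in spt3Δ, 0.24 in gcn5Δ, 0.33 in ubp8Δ and 0.55 in spt8Δ. Changes below are relative to these shifts, and a gene said to rise rose against the median gene. Of the 27 rises of the 10 genes against WT, 9 also passed as rises under S. pombe scaling, 7 kept the direction without passing and 11 turned negative.

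The genes did not move as a block. Of the tests of a gene in a strain, 33 of 70 passed in newly made RNA and 44 of 80 in total RNA. In spt20Δ, 7 of the 10 genes passed in newly made RNA, where 45.5% of all genes tested did, and 7 passed in total RNA, against 45.3%. In total RNA of spt7Δ, 9 passed, against 47.5% of all genes.

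Loss of the acetyltransferase gave 5 genes in newly made RNA of gcn5Δ, against 20.3% of all genes, and 7 in total RNA, against 36.9%. Loss of the deubiquitinase moved few: 1 of 10 in newly made RNA of ubp8Δ, against 13.7%, and 2 in total RNA, against 25.3%. With both enzymes missing, 6 passed in newly made RNA, against 42.5% (6 also with the constants undone, against 29.1%), and 7 in total RNA, against 45.1%.

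In spt3Δ, 2 genes passed in newly made RNA, against 13.5% of all genes, and 3 in total RNA, against 27.5%. In spt8Δ, 5 passed in newly made RNA, against 12.8%, and 1 in total RNA, against 16.7%. In spt3Δ gcn5Δ, 7 passed in newly made RNA, against 45.5%, and 8 in total RNA, against 59% of all genes. Between 42.5% and 59% of all genes passed in spt20Δ, spt7Δ and the double deletions, and the rest of the text describes the sizes and directions of single genes.

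**Figure D1:**
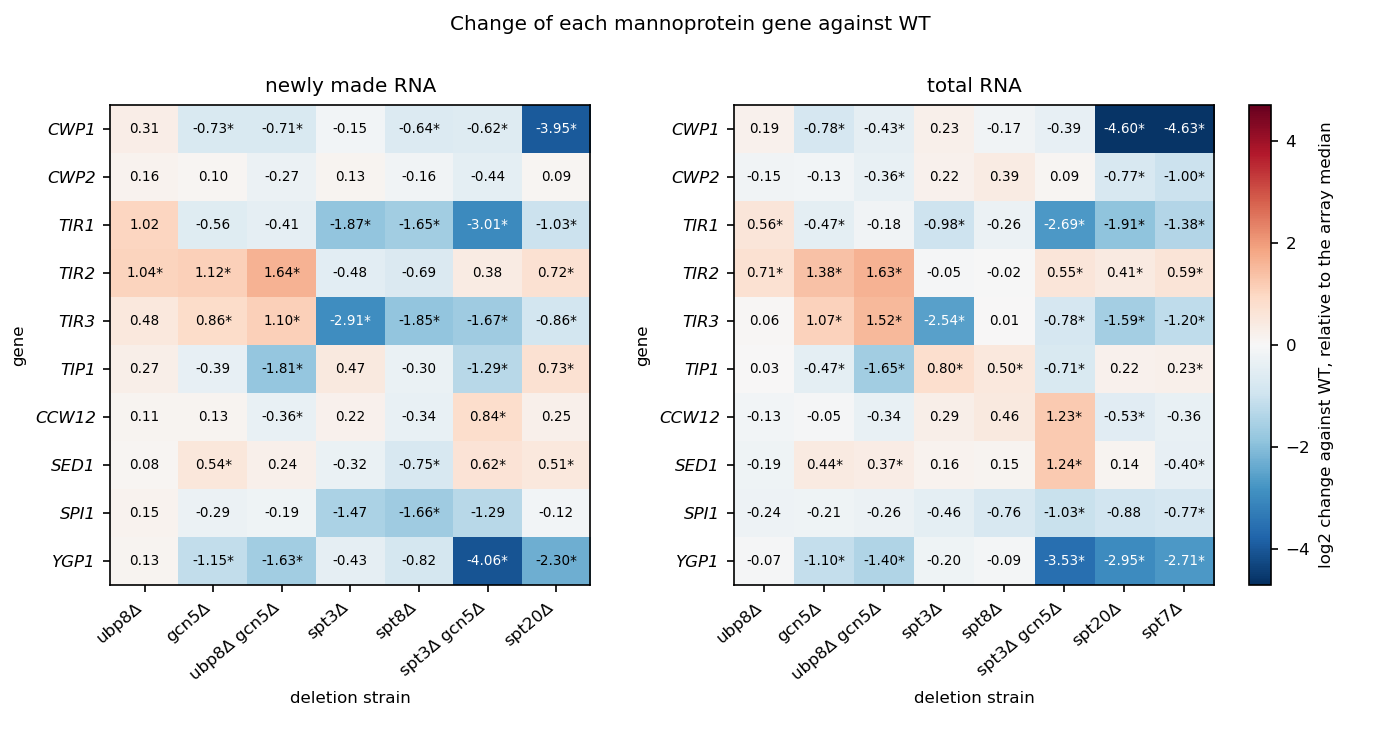
Log2 change of each of the 10 genes (rows) against WT in each deletion strain (columns), in newly made RNA on the left and total RNA on the right, with stars at an adjusted p under 0.05 and red for higher, blue for lower. CWP1 in spt20Δ and spt7Δ and YGP1 in spt3Δ gcn5Δ hold the darkest blue cells, TIR2 and TIR3 are red in gcn5Δ and ubp8Δ gcn5Δ, and CWP2 has no star in newly made RNA.

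CWP1 encodes a GPI-anchored mannoprotein bound to glucan and found at birth scars. Its nascent signal on the WT arrays ran from 5.26 to 7.24 times the array median, with a median of 6.79. The 4 spt20Δ arrays gave 0.467, 0.451, 0.453 and 0.333. The groups lie far apart, and no array of spt20Δ comes near a WT array.

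This is a 15.5-fold lower relative signal, a log2 change of -3.95 (SE 0.11, n = 4 against 6, adjusted p = 3.57e-18), and -3.91 within its set. In total RNA the 2 spt20Δ arrays gave 0.316 and 0.359 and the 4 spt7Δ arrays 0.315, 0.427, 0.305 and 0.288, where WT ran from 6.47 to 10.7. CWP1 fell by 4.596 in spt20Δ and by 4.63 in spt7Δ (SE 0.17 and 0.14), and the arrays of both strains overlap. Among 4086 genes it ranked 3 from the most negative in each of these 3 comparisons. The files give no detection calls, so how much of a signal below the array median is background is unknown, and the folds of so dim a signal may be too small.

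CWP1 responded far less to the other deletions. In gcn5Δ the nascent arrays gave 3.26, 4.09, 4.63 and 3.86, all below WT, a change of -0.73 (SE 0.11), and total RNA fell by 0.78. In ubp8Δ gcn5Δ, CWP1 fell by 0.71 in newly made RNA and by 0.43 in total RNA. The total value was -0.25 within its set, with an adjusted p of 0.0628, and the nascent value was -0.45 with the constants undone.

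In ubp8Δ alone all 4 nascent arrays, at 7.84 to 8.50, were above WT, a change of 0.31 with an adjusted p of 0.0629, and of 0.35 with 0.0492 within its set. In spt8Δ, CWP1 fell by 0.64 in newly made RNA, though leaving out either of the 2 spt8Δ arrays took the adjusted p to 0.128 or 0.102. In spt3Δ gcn5Δ it fell by 0.62 in newly made RNA. Its total RNA there changed by -0.39, which did not pass, and by -0.76 within its set, which did (adjusted p = 0.000258). CWP1 in spt3Δ passed in neither kind of RNA, with values of -0.15 and 0.23. Within the first set its total RNA passed in spt3Δ, at 0.42 (adjusted p = 0.0163), and in ubp8Δ, at 0.38 (0.0123).

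CWP2, which lies next to CWP1 on chromosome XI, encodes a GPI-anchored mannoprotein of the same kind that protects the wall at low pH. Its newly made RNA passed limma's test in 0 of 7 strains, and in 1 at an unadjusted p under 0.05, with changes from -0.44 in spt3Δ gcn5Δ to 0.16 in ubp8Δ. In spt20Δ, where CWP1 fell 15.5-fold, the 4 nascent arrays gave 12.4, 11.3, 14.01 and 11.4 times the array median for CWP2, and WT ran from 10.1 to 13.3. The groups overlap, and the change was 0.09 (SE 0.15, 95% interval from -0.22 to 0.39).

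In total RNA CWP2 was lower in both core deletions. The 2 spt20Δ arrays gave 10.94 and 10.997 and the 4 spt7Δ arrays 7.94, 9.95, 10.5 and 9.17, all below the lowest WT array at 14.99. CWP2 fell by 0.77 in spt20Δ (adjusted p = 0.00051) and changed by -1.001 in spt7Δ (7.47e-07). In ubp8Δ gcn5Δ it fell by 0.36, but the value was -0.19 within its set and no longer passed (adjusted p = 0.13), and the call also ended without its replicate 1 or 2 or WT replicate 7 or 8. Within the first set total CWP2 was higher in spt3Δ, at 0.38 (0.0218), and in spt8Δ, at 0.55 (0.00184), where all 6 WT arrays gave 0.22 and 0.39 and no call. The test of whether the spt20Δ change differed between newly made and total RNA gave 0.86 (SE 0.22, adjusted p = 0.426).

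**Figure D2:**
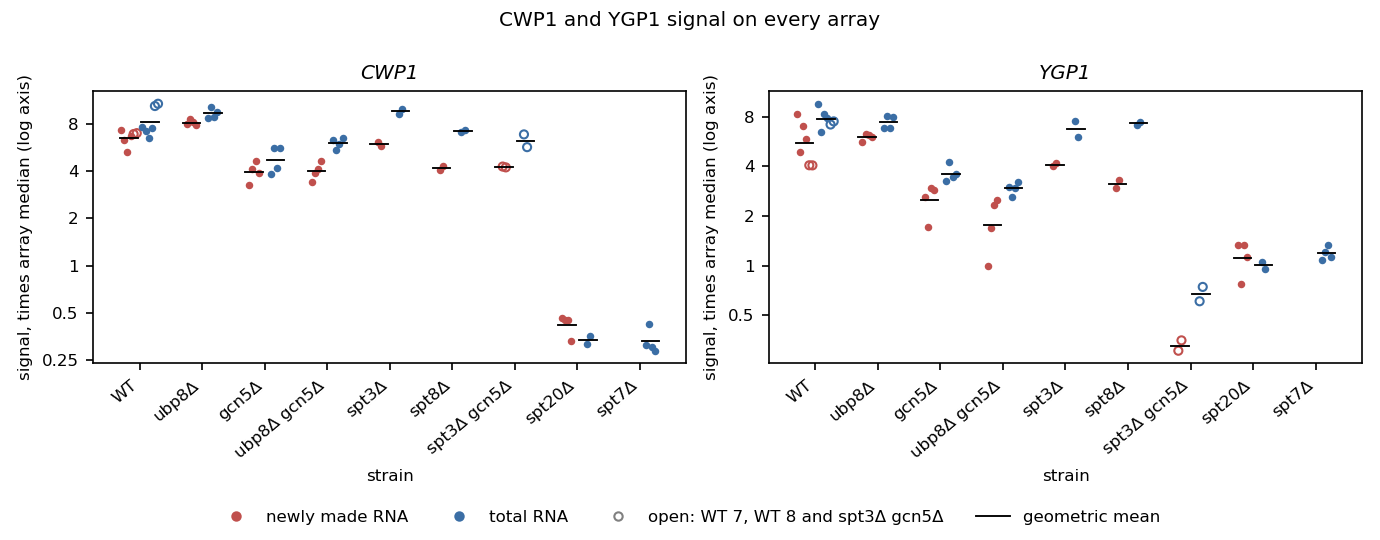
Signal of CWP1 (left) and YGP1 (right) on every array used, as a multiple of the array median on a log axis, for newly made RNA in red and total RNA in blue. Bars are geometric means and open points the arrays of the second set. CWP1 sits below 0.5 in spt20Δ and spt7Δ alone, while YGP1 is low in these and lowest in spt3Δ gcn5Δ.

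TIR1, TIR2 and TIR3 encode serine- and alanine-rich GPI mannoproteins of one family, induced in the cold and without oxygen, and Tir1 and Tir3 are needed for growth without oxygen. TIR2 neighbours another family member, TIR4, on chromosome XV. Each gene was read by a single probe set. Whether the probes of one TIR gene also bind RNA of another was not tested.

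TIR1 fell in both kinds of RNA in spt3Δ, spt3Δ gcn5Δ and spt20Δ, in total RNA of spt7Δ and gcn5Δ and in newly made RNA of spt8Δ, but its WT arrays disagreed. Nascent signals of WT replicates 3 to 6 lay between 2.45 and 3.86 times the array median and replicates 7 and 8 at 0.832 and 0.860. The sets of WT arrays do not overlap, and they differ by 1.79 on the log2 scale, so each nascent TIR1 value has to be read within its set. In total RNA the gap was smaller, 2.67 to 4.26 against 2.21 and 2.28.

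The spt3Δ gcn5Δ arrays gave 0.198 and 0.293 for TIR1 in newly made RNA and 0.470 and 0.439 in total RNA. All 4 lie below every WT array of their RNA. TIR1 fell by 3.01 in newly made RNA (SE 0.49, adjusted p = 3.26e-05), or by 1.81 within its set, and by 2.69 in total RNA (SE 0.15), or by 2.30 within its set.

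In spt3Δ the nascent arrays gave 0.711 and 0.393, below all WT arrays, and TIR1 fell by 1.87 (within-set -2.47). Leaving out spt3Δ replicate 2 ended that call, with -1.44 and an adjusted p of 0.286. In total RNA, at 1.44 and 1.54, it fell by 0.98 (adjusted p = 4.91e-05). In spt8Δ, TIR1 fell by 1.65 in newly made RNA (within-set -2.25), and the call ended without either spt8Δ array or without WT replicate 3. In total RNA the spt8Δ change was -0.26, which did not pass, and -0.45 within its set, which did (adjusted p = 0.00166).

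In spt20Δ the 4 nascent arrays, from 0.780 to 1.16, were below WT replicates 3 to 6 and overlapped replicates 7 and 8. TIR1 fell by 1.03 there (adjusted p = 0.0336, within-set -1.62), and the call ended without spt20Δ replicate 2 or 4 or without any 1 of WT replicates 3 to 6. Total TIR1 fell by 1.91 in spt20Δ (0.803 and 0.756) and by 1.38 in spt7Δ (1.07 to 1.18), clear of all WT arrays. In gcn5Δ, total TIR1 fell by 0.47. The change of newly made TIR1 in gcn5Δ was -0.56 (adjusted p = 0.331), and -1.15 within its set, which passed (0.00306).

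The ubp8Δ strain stood apart, with TIR1 at 3.74 to 4.21 in newly made and 4.16 to 4.51 in total RNA, at the upper end of WT. TIR1 rose by 0.56 in total RNA (adjusted p = 0.00192, within-set 0.37). The nascent change of 1.02 had an adjusted p of 0.0741 and was 0.43 within its set. In ubp8Δ gcn5Δ no TIR1 change passed, at -0.41 and -0.18, but within its set both did, at -1.003 (adjusted p = 0.00447) and -0.37 (0.000737).

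TIR2 was the member that rose most often. WT ran, in newly made RNA, from 0.353 to 0.431 times the array median, with a median of 0.405. The ubp8Δ arrays gave 0.870, 0.803, 0.838 and 0.781, the gcn5Δ arrays 1.09, 0.456, 1.07 and 1.08, and the ubp8Δ gcn5Δ arrays 0.849, 1.15, 1.64 and 1.49. Every one of these 12 arrays was above every WT array, with gcn5Δ replicate 2 only just so.

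TIR2 rose by 1.04 in ubp8Δ (SE 0.19, adjusted p = 0.00131), by 1.12 in gcn5Δ and by 1.64 in ubp8Δ gcn5Δ. Without gcn5Δ replicate 2 the gcn5Δ value was 1.43. In total RNA, where WT ran from 0.462 to 0.644, TIR2 rose by 0.71 in ubp8Δ, 1.38 in gcn5Δ and 1.63 in ubp8Δ gcn5Δ, with arrays at 0.724 to 0.911, 1.31 to 1.397 and 1.53 to 1.68. Scaled to S. pombe, the 3 total RNA rises also passed, while in newly made RNA the ubp8Δ value of 0.73 did not (adjusted p = 0.129) and the ubp8Δ gcn5Δ value came to 0.06. The nascent gcn5Δ value of 0.65 passed (0.0372). With the constants undone the nascent ubp8Δ gcn5Δ rise was 1.47.

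TIR2 also rose in spt20Δ, by 0.72 in newly made and 0.41 in total RNA, but these turned to -0.34 and -0.07 scaled to S. pombe. It rose by 0.59 in total RNA of spt7Δ, with 0.14 under that scaling, and by 0.55 in total RNA of spt3Δ gcn5Δ, with -1.07. In spt3Δ and spt8Δ it passed in neither kind of RNA, although all nascent arrays of both, at 0.241 to 0.321, were below the lowest WT array. The nascent spt8Δ change of -0.69 passed within its set, at -0.75 (adjusted p = 0.0177).

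TIR3 went down without Spt3 and up without Gcn5. The nascent spt3Δ arrays gave 0.136 and 0.127 times the array median, where WT replicates 3 to 6 ran from 1.06 to 1.47 and replicates 7 and 8 gave 0.548 and 0.649. In total RNA spt3Δ gave 0.212 and 0.234 against WT values of 1.08 to 1.67. TIR3 was thus 7.52-fold lower in newly made RNA, a change of -2.91 (SE 0.33, adjusted p = 1.66e-06, within-set -3.27), and fell by 2.54 in total RNA (SE 0.12).

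In gcn5Δ, TIR3 in total RNA was 2.396, 2.97, 2.74 and 2.81, and in ubp8Δ gcn5Δ 3.88, 3.51, 3.63 and 3.83. All 8 arrays lie above every WT array, with rises of 1.07 and 1.52 (SE 0.10 each). The nascent rises were 0.86 in gcn5Δ and 1.10 in ubp8Δ gcn5Δ, with overlap of the WT arrays. Within its set the gcn5Δ rise was 0.49 (adjusted p = 0.0696) and the call also ended without gcn5Δ replicate 1, 3 or 4 and scaled to S. pombe, at 0.39 (0.164). The ubp8Δ gcn5Δ rise was 0.74 within its set, 1.37 with the constants undone and -0.48 scaled to S. pombe.

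With both Spt3 and Gcn5 gone, TIR3 lay between the 2 single deletions. The spt3Δ gcn5Δ arrays gave 0.320 and 0.303 in newly made and 0.785 and 0.725 in total RNA, below all WT arrays, a fall of 1.67 (within-set -0.94) and of 0.78 (within-set -0.58). In the core deletions TIR3 fell by 1.59 in spt20Δ and by 1.20 in spt7Δ in total RNA, and by 0.86 in newly made RNA of spt20Δ (within-set -1.22).

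In spt8Δ, TIR3 split by the kind of RNA. The nascent arrays gave 0.282 and 0.267, below all WT arrays, and the total arrays 1.28 and 1.32, in the middle of WT. The change was -1.85 in newly made RNA, a call that ended without either spt8Δ array (adjusted p = 0.0679 and 0.0743), and 0.01 in total RNA. In ubp8Δ it passed in neither, at 0.48 and 0.06.

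TIP1 encodes a GPI mannoprotein of a related sequence family that is induced by heat and cold shock. Its nascent signal ran on WT replicates 3 to 6 from 7.26 to 8.41 times the array median, and replicates 7 and 8 gave 4.94 and 5.11. The ubp8Δ gcn5Δ arrays gave 1.52, 2.16, 1.76 and 2.33. In total RNA they gave 3.28, 2.65, 2.57 and 3.25 where WT ran from 8.15 to 10.2. None of the 8 comes near WT.

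TIP1 fell by 1.81 in newly made RNA of ubp8Δ gcn5Δ (SE 0.15, adjusted p = 2.08e-09, within-set -2.02, and -1.54 with the constants undone) and by 1.65 in total RNA (SE 0.09). In gcn5Δ the total arrays, at 6.30 to 7.57, were below WT and TIP1 fell by 0.47. The nascent gcn5Δ change of -0.39 did not pass (adjusted p = 0.0628), but the within-set value of -0.60 did. In ubp8Δ neither passed, at 0.27 and 0.03. In spt3Δ gcn5Δ, TIP1 fell by 1.29 in newly made RNA (2.83 and 2.65, within-set -0.88) and by 0.71 in total RNA (5.98 and 5.22).

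The same gene was higher in 4 other strains. TIP1 rose by 0.80 in total RNA of spt3Δ, at 17.5 and 14.6, and by 0.50 in spt8Δ, at 13.3 and 12.7, all above the highest WT array, though the spt8Δ call ended without its replicate 1 (adjusted p = 0.0781). Scaled to S. pombe the spt3Δ value was 0.73 and did not pass (0.12). Newly made TIP1 in spt8Δ changed by -0.30, which did not pass, and by -0.51 within its set, which did (0.00786). In total RNA of spt7Δ the rise was 0.23, turned to -0.22 scaled to S. pombe, and the call ended without any 1 of spt7Δ replicates 2, 3 and 4 or WT replicates 3, 4 and 7. In newly made RNA of spt20Δ, at 10.3 to 12.2, TIP1 rose by 0.73 (within-set 0.52), which turned to -0.34 scaled to S. pombe.

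**Figure D3:**
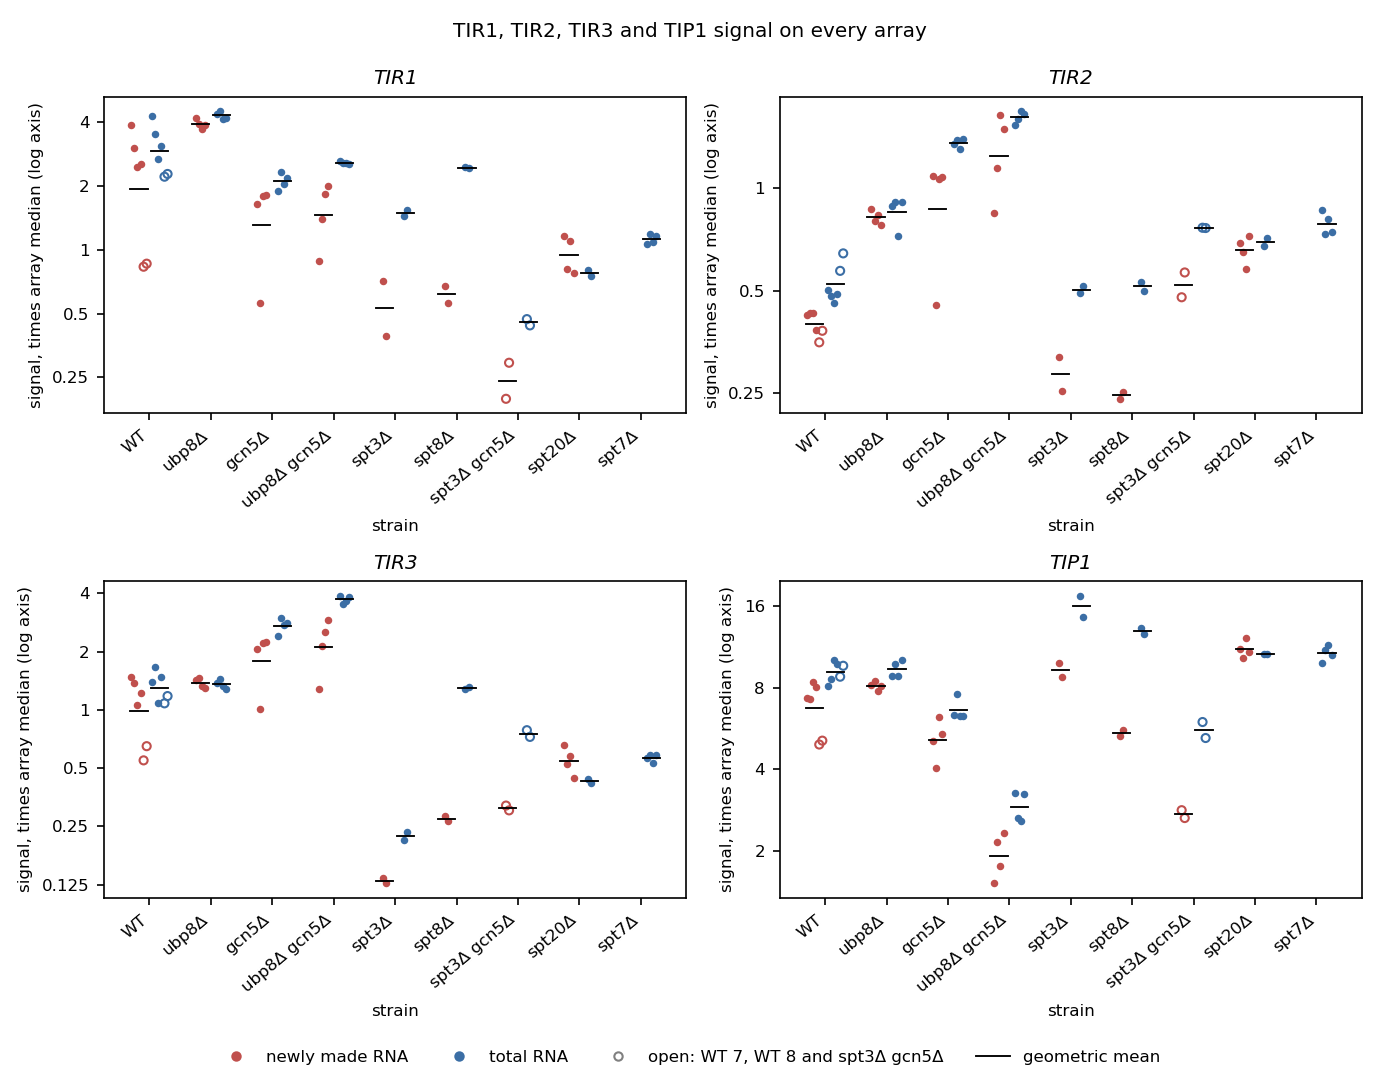
Signal of TIR1, TIR2, TIR3 and TIP1 on every array used, as a multiple of the array median on a log axis, for newly made RNA in red and total RNA in blue. Bars are geometric means and open points the arrays of the second set. TIR3 is lowest in spt3Δ and highest in ubp8Δ gcn5Δ, TIP1 is lowest in ubp8Δ gcn5Δ, and the open WT points of TIR1 and TIR3 lie below the filled ones in newly made RNA.

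CCW12 encodes a GPI-anchored wall protein whose loss weakens the wall, and its gene lies next to AHP1 on chromosome XII. It moved clearly in 1 strain. In spt3Δ gcn5Δ, nascent arrays gave 28.0 and 27.2 times the array median against a WT range of 13.6 to 16.4, and total arrays 62.3 and 49.6 against 18.0 to 34.7. All 4 lie above WT. CCW12 rose by 0.84 (SE 0.16, adjusted p = 0.000245) and by 1.23 (within-set 0.71), and both turned negative scaled to S. pombe, at -1.82 and -0.38.

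Elsewhere CCW12 passed in 2 comparisons with WT, and neither call held throughout. Newly made RNA in ubp8Δ gcn5Δ changed by -0.36 (adjusted p = 0.0281) but by -0.09 with the constants undone, and the call ended without replicate 1 or 2 of that strain. Total RNA in spt20Δ changed by -0.53 (0.0387), by -0.27 within its set (0.104), and the call ended without either spt20Δ array or without WT replicate 7 or 8. The WT total arrays of the second set, at 33.1 and 34.7, were well above the first, at 18.0 to 23.7. Within the first set, total CCW12 was higher in spt3Δ, at 0.55 (adjusted p = 0.00276), and in spt8Δ, at 0.73 (0.000259), neither of which passed against all 6 WT arrays.

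SED1 encodes a major GPI-anchored wall protein of stressed and stationary cells. WT arrays of newly made RNA ran from 9.36 to 12.2 times the array median, with a median of 10.2. The spt20Δ arrays gave 13.9, 12.99, 15.7 and 16.1, the spt3Δ gcn5Δ arrays 14.5 and 17.4, and the spt8Δ arrays 6.17 and 6.06. The first 2 strains lie wholly above WT and spt8Δ wholly below.

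SED1 rose by 0.51 in spt20Δ (SE 0.12), by 0.62 in spt3Δ gcn5Δ and by 0.54 in gcn5Δ, and fell by 0.75 in spt8Δ. The spt8Δ call ended without either of its arrays, and the spt3Δ gcn5Δ call without its replicate 2 (adjusted p = 0.0796). Scaled to S. pombe, the rises in spt20Δ and spt3Δ gcn5Δ turned to -0.56 and -2.04, and the gcn5Δ value came to 0.07 (adjusted p = 0.824). In ubp8Δ gcn5Δ the nascent change of 0.24 did not pass, but 0.50 with the constants undone did.

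In total RNA, SED1 in spt3Δ gcn5Δ reached 38.3 and 31.7 against WT values of 11.9 to 19.5, a rise of 1.24 (SE 0.15, within-set 0.85), which turned to -0.38 scaled to S. pombe. It rose by 0.44 in gcn5Δ and by 0.37 in ubp8Δ gcn5Δ, with overlap of the WT arrays. The second call ended without ubp8Δ gcn5Δ replicate 3 (adjusted p = 0.073) and scaled to S. pombe, at 0.13 (0.435). In spt7Δ, SED1 fell by 0.40, or by 0.20 within its set. Its total RNA in spt20Δ did not pass, at 0.14, and did within its set, at 0.33 (adjusted p = 0.00534). The same held in spt3Δ, at 0.16 and 0.36 (0.00423), and in spt8Δ, at 0.15 and 0.34 (0.0072), given for all WT arrays and then within the set.

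SPI1 encodes a GPI wall protein that resembles Sed1 and is induced by weak acids and in stationary phase. It varied more among WT arrays than any other member. In newly made RNA, WT replicates 3 to 6 gave 1.15 to 2.19 times the array median and replicates 7 and 8 gave 0.334 and 0.367, a difference of 2.29 on the log2 scale, and total RNA gave 1.11 to 2.38 against 0.504 and 0.495. The WT arrays of the sets do not overlap, and a change of SPI1 against all 6 WT arrays holds this difference.

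Against all WT arrays, SPI1 passed in newly made RNA of spt8Δ, at -1.66 (adjusted p = 0.0439), and in total RNA of spt7Δ, at -0.77, and of spt3Δ gcn5Δ, at -1.03. Within its set the spt3Δ gcn5Δ change was 0.16 in total and 0.24 in newly made RNA, and neither passed (adjusted p = 0.514 and 0.651). The spt8Δ call ended without either spt8Δ array or without any 1 of WT replicates 3 to 6. The spt7Δ call ended without any 1 of its arrays or of WT replicates 3, 4 and 6, and the spt3Δ gcn5Δ call without its replicate 2.

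Within the first set SPI1 was lower than WT replicates 3 to 6 in all 7 strains of total RNA, by 0.81 in gcn5Δ to 1.48 in spt20Δ, and each passed. In newly made RNA the within-set changes ran from -0.61 in ubp8Δ, which did not pass (adjusted p = 0.122), to -2.43 in spt8Δ. Every one of these comparisons uses the same 4 WT arrays.

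**Figure D4:**
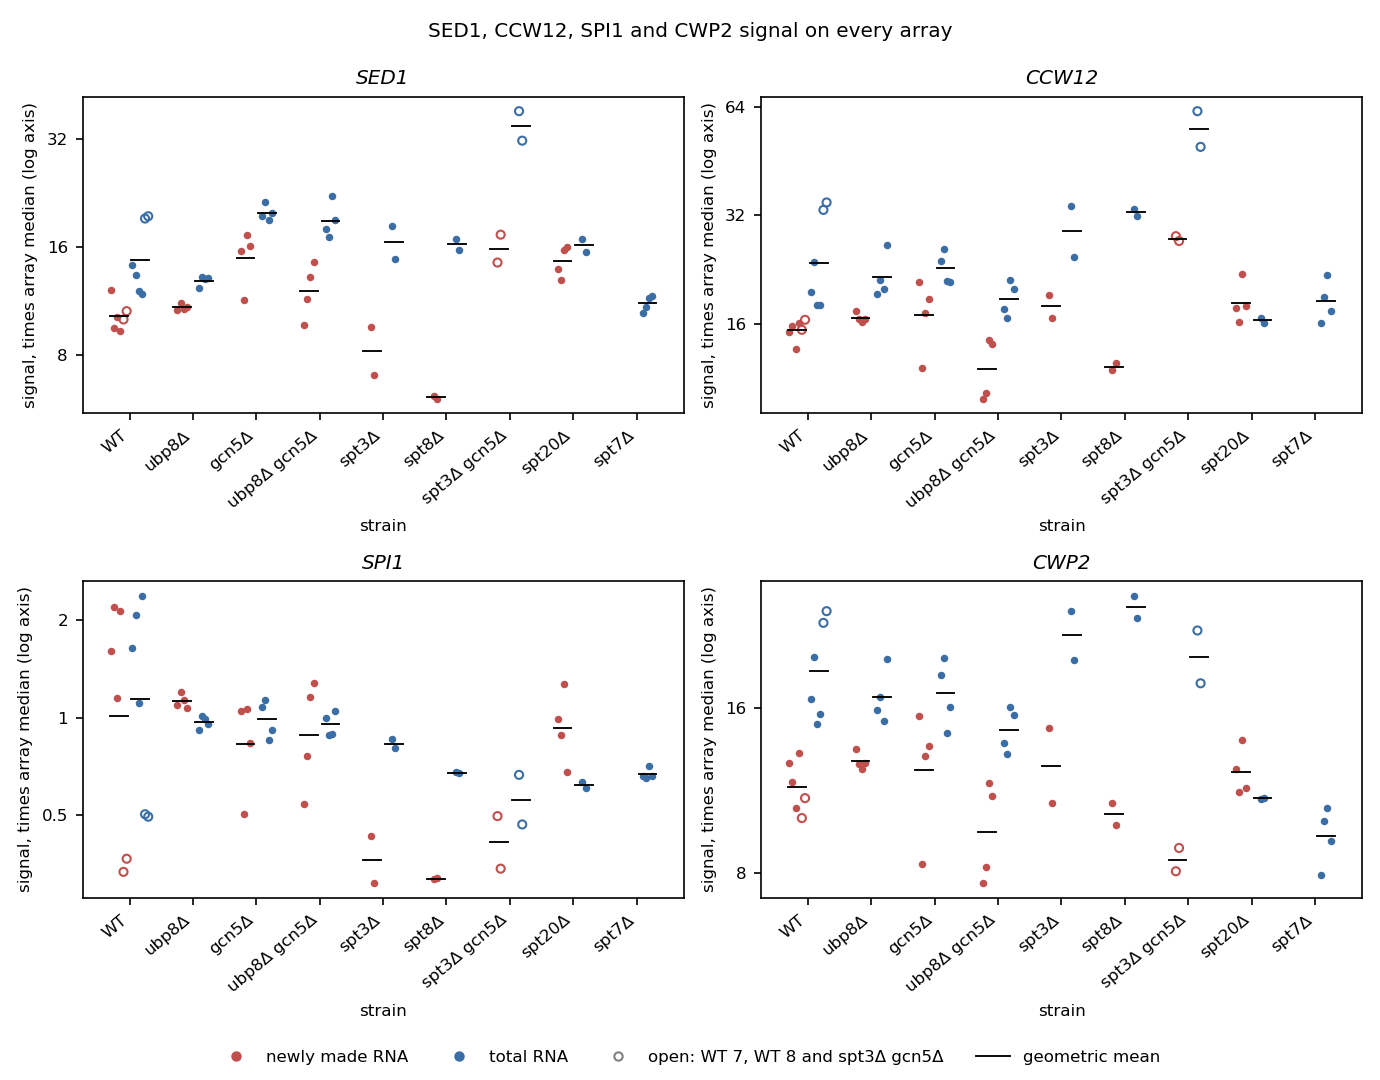
Signal of SED1, CCW12, SPI1 and CWP2 on every array used, as a multiple of the array median on a log axis, for newly made RNA in red and total RNA in blue. Bars are geometric means and open points the arrays of the second set. SED1 and CCW12 are highest in spt3Δ gcn5Δ, and the open WT points of SPI1 lie far below the filled ones in both kinds of RNA.

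YGP1 encodes a secreted glycoprotein of the wall that rises when nutrients run short. The WT arrays ran in newly made RNA from 4.05 to 8.30 times the array median, with a median of 5.37, and in total RNA from 6.49 to 9.57. The spt3Δ gcn5Δ arrays gave 0.305 and 0.353 in newly made and 0.609 and 0.744 in total RNA. This is the lowest YGP1 signal of all strains in both kinds of RNA.

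YGP1 was 16.7-fold lower in newly made RNA of spt3Δ gcn5Δ, a change of -4.06 (SE 0.29, adjusted p = 2.66e-10, within-set -3.63), and 11.5-fold lower in total RNA, a change of -3.53 (SE 0.13, within-set -3.44). In spt20Δ it fell by 2.30 in newly made RNA, with arrays at 1.33, 0.777, 1.33 and 1.12, and by 2.95 in total RNA, at 1.06 and 0.951. In spt7Δ it fell by 2.71 in total RNA, at 1.08 to 1.34. All of these lie below every WT array.

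The acetyltransferase deletions gave a smaller fall. YGP1 fell by 1.15 in newly made and by 1.10 in total RNA of gcn5Δ, and changed by -1.63 (-1.37 with the constants undone) and -1.403 in ubp8Δ gcn5Δ, again with all arrays below WT. In ubp8Δ and spt3Δ no change passed, with values between -0.43 and 0.13. In spt8Δ the nascent arrays, at 2.97 and 3.28, were below WT with a change of -0.82 that did not pass (adjusted p = 0.0705). The within-set value of -1.04 did (0.00468), and the total change was -0.09.

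Against one another, the deletions separated the members further. Gcn5 loss was set beside loss of Spt20 to ask what the core adds to the enzyme. In newly made RNA 4 of the 10 differed between spt20Δ and gcn5Δ, against 28.9% of all genes, and in total RNA 7 did, against 30.4%. CWP1 was lower in spt20Δ than in gcn5Δ by 3.22 (SE 0.12) and 3.81, TIR3 by 1.72 and 2.66, and YGP1 by 1.15 and 1.85, given for newly made and total RNA in that order. TIP1 was higher in spt20Δ, by 1.11 and 0.69. In total RNA, 3 more passed with the array set as a term, CCW12 at -0.48, SPI1 at -0.67 and SED1 at -0.30.

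In total RNA spt7Δ was also set beside ubp8Δ gcn5Δ, which lacks both enzymes and keeps the core genes. There 8 of 10 differed, against 28.5% of all genes. CWP1 was -4.19 (SE 0.15), TIR3 -2.72, YGP1 -1.31, TIR1 -1.20, TIR2 -1.04, SED1 -0.77 and CWP2 -0.64 in spt7Δ relative to ubp8Δ gcn5Δ, and TIP1 was 1.88. CCW12, at -0.02 (SE 0.18), and SPI1, at -0.51 (SE 0.33, adjusted p = 0.27), did not pass. The same SPI1 difference did with the array set as a term (0.0041).

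Spt3 and Spt8 are commonly treated together because both contact the TATA-binding protein. In newly made RNA 0 members differed between spt3Δ and spt8Δ past the threshold with limma, where 0.979% of all genes did, and 5 had an unadjusted p under 0.05. TIR3 had a difference of -1.06 (SE 0.40, adjusted p = 0.415). In total RNA 2 did, against 6.34%. TIR3 was lower in spt3Δ than in spt8Δ by 2.55 (SE 0.15, adjusted p = 9.45e-12) and TIR1 by 0.72 (0.0189), and the TIR1 call ended without any 1 of the 4 arrays.

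Adding the loss of Ubp8 to that of Gcn5 changed 2 members in newly made RNA, against 19.2% of all genes, and 2 in total RNA, against 13.2%. TIP1 was lower in ubp8Δ gcn5Δ than in gcn5Δ by 1.42 in newly made (SE 0.16, -1.16 with the constants undone) and by 1.18 in total RNA (SE 0.09). TIR3 was higher by 0.45 in total RNA. CCW12 was lower by 0.49 in newly made RNA, a call that ended with the constants undone, at -0.23, and without gcn5Δ replicate 1 or 4 or double deletion replicate 1 or 2.

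Adding the loss of Gcn5 to that of Ubp8 changed more, 7 members in newly made RNA, against 34.1%, and 7 in total RNA, against 22.7%. TIP1 fell by 2.08 and by 1.69, YGP1 by 1.77 and 1.33, CWP1 by 1.03 and 0.63, and TIR1 by 1.43 and 0.74 from ubp8Δ to the double deletion. TIR3 rose by 1.46 in total RNA and TIR2 by 0.92. With the constants undone, the nascent differences were -1.82 for TIP1, -1.50 for YGP1 and -0.76 for CWP1, which passed. Those of TIR1, at -1.17 (adjusted p = 0.075), CWP2, at -0.16, TIR2, at 0.43, and CCW12, at -0.21, no longer did, while TIR3, at 0.89, and SED1, at 0.42, newly passed. The TIR1 call also ended without double deletion replicate 1.

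Adding the loss of Gcn5 to that of Spt3 changed 7 members in newly made RNA, against 38.2% of all genes, and 8 in total RNA, against 58.7%. Those strains lie in different sets of arrays, so the value with the set as a term in the fit is given as well. YGP1 was lower in spt3Δ gcn5Δ than in spt3Δ by 3.64 (with the term -2.98) and 3.32 (-3.20), and TIP1 by 1.76 (-1.14) and 1.51 (-1.52). TIR3 was higher by 1.24 (2.34) and 1.76 (2.06), and its nascent call ended without any 1 of the 4 arrays. SPI1, at 0.18 and -0.57, passed in neither, but became 2.47 and 1.22 with the term.

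Adding the loss of Spt3 to that of Gcn5 changed 7 members in newly made RNA, against 51.4%, and 6 in total RNA, against 64.5%. With the term, 4 passed in newly made RNA, of which TIR3, YGP1 and CCW12 were among the 7. The other was SPI1, at 1.29 with the term and -1.01 without it. CWP2, TIR1, TIR2 and TIP1 no longer passed with the term. TIR3 was lower in spt3Δ gcn5Δ than in gcn5Δ by 2.52 (with the term -1.43) and 1.85 (-1.55), YGP1 by 2.92 (-2.26) and 2.42 (-2.30), and TIR1 by 2.45 (-0.66, which did not pass, with an adjusted p of 0.338) and 2.21 (-1.64).

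The double deletions were also set beside the sum of the changes of their single deletions, a comparison added after the data had been seen. In ubp8Δ gcn5Δ, 2 members differed from the sum in newly made RNA, against 13.2% of all genes, and 2 in total RNA, against 12.7%. TIP1 changed by -0.39 in gcn5Δ and 0.27 in ubp8Δ in newly made RNA, and by -1.81 in the double deletion. It was below the sum by 1.69 (SE 0.22, adjusted p = 6.3e-05, -1.43 with the constants undone) and in total RNA by 1.21 (SE 0.13). The other calls were CCW12 in newly made RNA, at -0.61 and -0.34 with the constants undone, which also depended on single arrays, and TIR2 in total RNA, at -0.46.

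In spt3Δ gcn5Δ, 2 members differed from the sum in newly made RNA, against 39.6% of all genes, and 7 in total RNA, against 60.5%. YGP1 changed by -0.43 in spt3Δ and -1.15 in gcn5Δ in newly made RNA and by -4.06 in the double deletion. It was below the sum by 2.49 (SE 0.43, with the set as a term -1.61) and in total RNA by 2.22 (SE 0.19, with the term -2.05). TIP1 was below the sum by 1.38 in newly made RNA, which no longer passed with the term, at -0.54 (adjusted p = 0.131), and by 1.04 in total RNA (with the term -1.05). In total RNA TIR2 was below the sum by 0.78 and TIR3 above it by 0.69, the second turned to -1.09 scaled to S. pombe. TIR1 was below it by 1.23 (with the term -0.47, which did not pass), while the differences of CCW12 and SED1, 0.99 and 0.64, changed sign with the term, to -0.05 and -0.15. With the term, TIR3, TIR1 and SPI1 passed in newly made RNA as well, at 1.84, 1.81 and 3.52 above the sum.

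**Figure D5:**
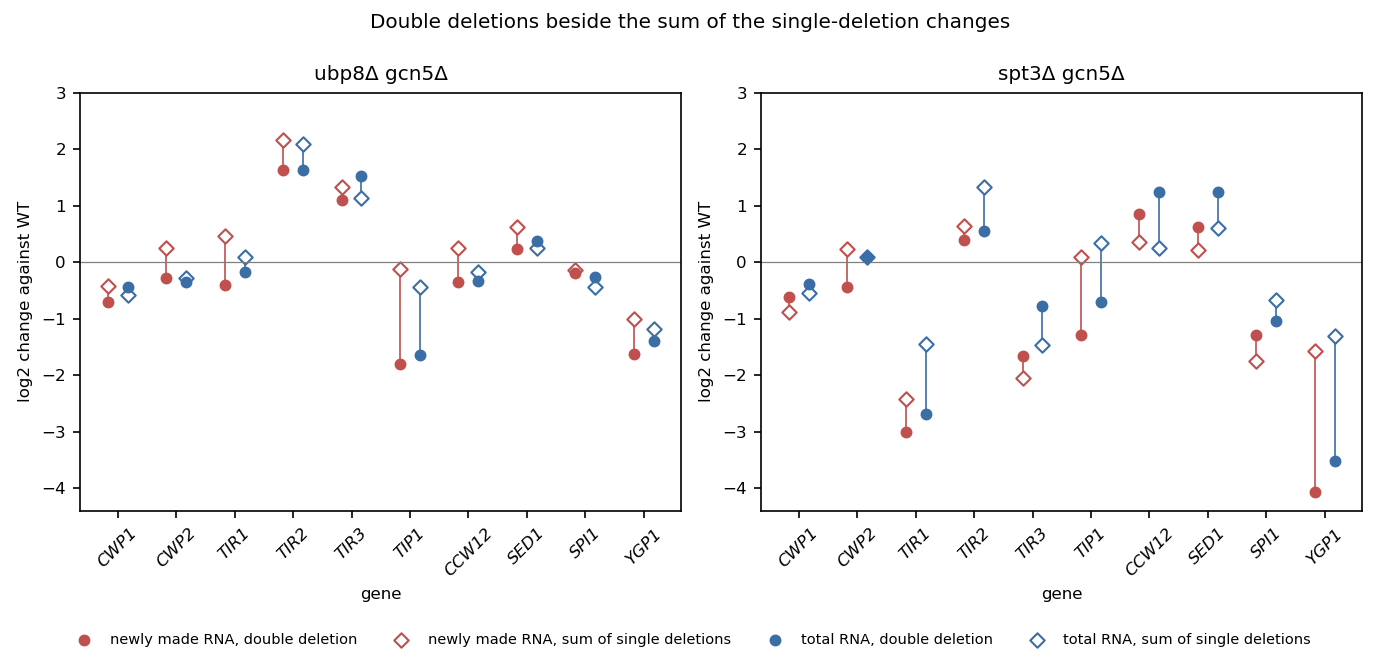
Log2 change against WT of each gene in ubp8Δ gcn5Δ (left) and spt3Δ gcn5Δ (right), as filled circles, joined to the sum of the changes in the matching single deletions, as open diamonds, for newly made RNA in red and total RNA in blue. The longest lines belong to TIP1 in ubp8Δ gcn5Δ and to YGP1 in spt3Δ gcn5Δ, and in both the double deletion lies below the sum.

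The change of each member in newly made RNA was tested against its change in total RNA in the same strain. The fit held no term for the pairing of same-numbered arrays, and counts that a replicate block moved are given below. In spt20Δ, ubp8Δ and gcn5Δ 0 members differed with limma, where 0% of 4015 genes did, and at an unadjusted p under 0.05 there were 6, 0 and 0. In spt3Δ 0 members differed, against 0.747% of all genes, in ubp8Δ gcn5Δ 0, against 0.374%, and in spt3Δ gcn5Δ 0, against 0.274%, with 1, 0 and 4 at an unadjusted p under 0.05. With the array set as a term 5 passed in spt3Δ and 1 in ubp8Δ gcn5Δ. In spt8Δ, 4 members did, against 9.56%, and all 4 were lower in newly made RNA.

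These 4 were TIR3, at -1.86 (SE 0.36, adjusted p = 0.00218), SED1, at -0.90 (0.0087), CCW12, at -0.80 (0.0471), and TIP1, at -0.80 (0.0174). The other 6 members had differences between -0.47 and -1.39 that did not pass. With the array set as a term all 10 passed, from -0.61 for CWP1 to -2.12 for TIR3. The share of all genes that passed with this term was not counted, in spt8Δ or in the other strains. With consecutive replicates averaged none passed. Leaving out 1 array at a time gave between 1 and 5, and of the 4 calls that of TIR3 alone held throughout.

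Within WT, each array being centred on its own median gene, 7 members were lower in newly made than in total RNA, where 13.8% of all genes were called lower. All 10 differences were negative, from -0.18 for SPI1 to -0.70 for CWP2 (SE 0.12), with -0.62 for CCW12 and -0.52 for SED1. WT nascent and total arrays of the same number varied together, so the fit with the replicate number as a block applies here. It called 8 members lower, TIR1 in addition, where 27.6% of all genes were called lower. With the array set as a term for each kind of RNA, 0 of the 10 passed, and leaving out 1 array at a time gave between 4 and 9. This difference is between relative signals and says nothing about the amount of RNA.

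The other genes of the wall were counted from lists of textbook membership, and the share of all genes called in a comparison is that given for it above. The list of further GPI-anchored wall proteins had 31 genes, of which 17 could be tested. In total RNA of ubp8Δ gcn5Δ, 11 rose and 2 fell, with a list median of 0.40 where the median of all genes was -0.05. PRY3, a GPI-anchored CAP protein, rose by 1.06 and DAN4, an anaerobic wall protein, by 0.77, while AGA1, an agglutinin subunit, fell by 0.83. In spt3Δ it went the other way, 1 higher and 6 lower (5 and 8 with the array set as a term), with a list median of -0.27 against 0.06 for all genes, PRY3 at -1.30 and EGT2, a daughter cell wall protein, at -1.39. In the core deletions, 6 of the list rose and 2 fell in spt20Δ, and 5 rose and 4 fell in spt7Δ. These are 47.1% and 52.9% of the list, where 45.3% and 47.5% of all genes passed. The list medians were 0.14 and -0.11, against -0.07 and -0.04 for all genes. EGT2 itself fell by 1.02 in spt20Δ and 1.31 in spt7Δ.

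The PIR and alkali-linked list had 8 of 12 genes tested. In total RNA, 6 rose and 0 fell in ubp8Δ gcn5Δ, 1 rose and 6 fell in spt20Δ, and 1 rose and 5 fell in spt7Δ. The list medians were 0.42, -0.64 and -0.73, where those of all genes were -0.05, -0.07 and -0.04. In spt3Δ, 1 rose and 3 fell (4 and 3 with the array set as a term). In spt3Δ gcn5Δ, 5 rose and 1 fell (4 and 1 with the term). The list medians in these 2 strains were -0.17 and 0.41, against 0.06 and -0.02 for all genes. PRY1, which binds sterols, fell by 2.66 in spt3Δ, by 2.42 in spt3Δ gcn5Δ, by 1.89 in spt20Δ and by 1.17 in spt7Δ. It rose by 0.43 in ubp8Δ gcn5Δ. PIR1, whose product is joined to the wall through glutamine residues, fell by 0.68 in spt20Δ and by 0.84 in spt7Δ.

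Of the glucan and chitin list, 27 of 35 genes could be tested in total RNA. In spt7Δ, 14 fell and 5 rose, and in spt20Δ 12 fell and 4 rose, with list medians of -0.34 and -0.32 against -0.04 and -0.07 for all genes. The spt20Δ count became, with the array set as a term, 11 and 9. CTS1, the chitinase that parts mother and daughter, fell by 2.09 in spt20Δ and by 1.88 in spt7Δ, and EXG1, an exoglucanase, by 2.33 in spt7Δ. In spt3Δ gcn5Δ, 14 rose and 1 fell, which is 55.6% of the list where 59% of all genes passed, with a list median of 0.42 against -0.02 for all genes. Scaled to S. pombe the list median was -1.20. The examples were FKS1, a catalytic subunit of glucan synthase, at 1.39 and BGL2, an endoglucanase, at 1.23. That count became 10 and 10 with the array set as a term, with FKS1 at 0.79 and BGL2 at 0.79.

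Of the 59 genes for mannosyltransferases and GPI anchor synthesis, 51 could be tested. In total RNA, 0 rose and 13 fell in spt3Δ, 16 rose and 9 fell in spt3Δ gcn5Δ, and 6 rose and 6 fell in spt7Δ. These are 25.5%, 49% and 23.5% of the list, where 27.5%, 59% and 47.5% of all genes passed. The list medians were -0.21, 0.26 and -0.06, where those of all genes were 0.06, -0.02 and -0.04. With the array set as a term the counts became 11 and 15, 11 and 20, and 23 and 10. KTR2, a mannosyltransferase of the KRE2 family, fell by 1.28 in spt20Δ (within-set -1.59) and by 1.24 in spt7Δ.

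Of 24 symbols listed for the cell wall integrity pathway and its reporter genes, 13 could be tested. The list holds MLP1, KDX1, YLR194C and NCW2, and whether each symbol names a separate gene of the pathway was not checked. In total RNA of spt3Δ gcn5Δ, 10 rose and 1 fell, which is 84.6% of the list where 59% of all genes passed, and in newly made RNA 8 rose, against 45.5%. The total counts were 8 and 3 with the array set as a term. The list median in total RNA was 0.82 against -0.02 for all genes, and -0.80 scaled to S. pombe. MID2, a wall stress sensor, rose by 1.55, ROM2, an exchange factor for Rho1, by 1.41, and PTP2, a phosphatase of the pathway, by 1.78. Against all 6 WT arrays, in no other strain did more than 4 of these genes rise or more than 4 fall in either kind of RNA.

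Of 20 regulators tied to hypoxic, stress or cell cycle control of wall genes, 15 could be tested. In total RNA, 9 fell and 1 rose in spt20Δ, 8 fell in spt7Δ, and 9 fell and 1 rose in ubp8Δ gcn5Δ. The list medians were -0.48, -0.41 and -0.38, where those of all genes were -0.07, -0.04 and -0.05. SUT1, a regulator of sterol uptake and hypoxic genes, fell by 1.07 in spt7Δ, by 0.84 in spt20Δ and by 1.29 in ubp8Δ gcn5Δ, and HAP1, the heme-responsive activator, fell by 0.97 in spt20Δ. ROX1, the repressor of hypoxic genes, rose by 1.07 in ubp8Δ gcn5Δ.

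Of 24 general stress genes, 19 could be tested. In total RNA of spt3Δ gcn5Δ, 10 fell and 1 rose, in spt7Δ 11 fell and 1 rose, and in gcn5Δ 8 rose and 1 fell. The list medians were -0.82, -0.58 and 0.54, where that of all genes in gcn5Δ was 0.01. In total RNA of spt20Δ, 5 fell and 1 rose, which is 31.6% of the list where 45.3% of all genes passed. DDR48, a stress-induced protein, fell by 3.83, 3.03 and 2.54 in spt3Δ gcn5Δ, spt7Δ and spt20Δ, the 3 strains with the lowest total YGP1. YRO2, a membrane protein of the HSP30 family, fell by 4.11, 3.00 and 3.41 there. In gcn5Δ, where the list median was 0.54, the change of total YGP1 was -1.10.

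Over the means of the 8 nascent and 9 total groups, centred within a kind of RNA, the genes most like each member were named by Pearson's r among 4005 others. These 17 means share arrays, medians and WT sets, and the values describe the profiles only. CWP1 was most like KTR2, at 0.915, then GPD1, a glycerol phosphate dehydrogenase, at 0.904. TIR3 was most like LPX1, a peroxisomal lipase, at 0.945, then PRY3 at 0.903 and PRY1 at 0.897. SED1 was most like BGL2, DFG5 and FKS1, at 0.903, 0.897 and 0.892, all genes of the wall lists.

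CCW12 followed genes of high signal, RPS2, a ribosomal protein gene, at 0.996, CDC19, pyruvate kinase, at 0.995 and ADH1, alcohol dehydrogenase, at 0.992. CWP2 was most like AHP1, the peroxiredoxin gene next to CCW12, at 0.918, and then the PIR gene CIS3, at 0.892. TIR1 was most like the gene YCL002C, at 0.927, TIR2 like GDB1, the glycogen debranching enzyme, at 0.943, and TIP1 like PFD1, a prefoldin subunit, at 0.934. SPI1 was most like GAD1, glutamate decarboxylase, at 0.897, and YGP1 like EHD3, at 0.943, and the protease gene BAR1, at 0.932.

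Among the members themselves, the highest such values were 0.807 for TIR1 with SPI1, 0.785 for TIR1 with YGP1 and 0.778 for TIR2 with TIR3. The lowest were -0.579 for TIR2 with TIP1 and -0.512 for TIR3 with TIP1, and both pairs split in gcn5Δ and ubp8Δ gcn5Δ, where the TIR genes rose and TIP1 had its lower values. The chromosome neighbours CWP1 and CWP2 had 0.667.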

How the data were processed

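Newly made and total RNA of S. cerevisiae, mixed with S. pombe cells, was read on Affymetrix arrays that hold probe sets of both yeasts. The authors deposited 1 table of intensity values, linear signals per probe set for which the submitters' processing notes name the program Expression Console (Affymetrix), version 1.4.1. No label, note or header states how signals were scaled between arrays. The table has 68 array columns. Of them, 10 were left out: WT replicates 1 and 2, which are averages, the spt7Δ nascent arrays, whose rows are out of order, and spt20Δ total replicates 1 and 3.

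Of 10928 probe sets, 7244 have 1 gene, 1 has several and 3683 have none in the platform annotation. The brightest probe set stood for each of 47 genes with more than 1, and 12 symbols were updated through the RefSeq table of assembly R64. Signals were put on the log2 scale, centred on each array's median S. cerevisiae gene, and the 25% of genes with the lowest mean were left out, which kept 4086 in each kind of RNA and 4015 in both. Differences were tested with lmFit and eBayes of limma 3.58.1 (R 4.3.3) over all arrays of a kind of RNA, with Benjamini-Hochberg adjustment and a threshold of 0.05, after checks on simulated data. Every adjusted p in the text is from limma. Within-set values come from the same fit with the array set as a term. Figures were drawn with matplotlib 3.10.9 (Python 3.11.15).

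The 10 genes and all lists were chosen with earlier results of these data known, so no p-value is adjusted over them alone. Named genes are the 10 members, the deleted genes, up to 3 genes most like each member, and up to 4 genes of a list with the lowest adjusted p in a comparison. Replicate numbers are shared between groups. Same-numbered arrays of newly made and total RNA deviated together in WT (r from 0.56 to 0.85 over 6 pairs) and in ubp8Δ (0.35 to 0.57 over 4 pairs). Other pairings were not all over 0.1. The WT deviations hold the difference between the array sets. The precision is limited by the number of arrays, 2 to 6 a group. Alternatives were quantile and S. pombe scaling, no filter, the mean of probe sets, an added offset of 16 and the array set as a term. Others were WT arrays of 1 set, only the 2 groups compared, consecutive replicates averaged, a replicate block, undone constants and leaving out each array. For spt20Δ a further alternative kept total replicates 1 and 3.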

Additional observations from a re-analysis of the deposited data

Results flagged for a closer look

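Within groups of 4 to 10 arrays, 6 of 100 sets of values for a gene had 1 array that stood far from the rest, and chance flags about 1 in 20. The gcn5Δ nascent replicate 2 was low for 3 TIR genes. TIR1 was 0.560 times the array median there, where the other 3 arrays lay between 1.65 and 1.81. TIR2 was 0.456 against 1.07 to 1.09, and TIR3 was 1.02 against 2.06 to 2.23. The low values were not confined to the TIR genes. Without a flag, the same array was also the lowest of its group for CWP2, TIP1, CCW12, SED1, SPI1 and YGP1, though not for CWP1. CWP2 was 8.31 there against 13.1 to 15.5. CWP1 in newly made RNA of spt20Δ was 0.333 in replicate 4 and 0.451 to 0.467 in the others. TIP1 in total RNA of gcn5Δ was 7.57 in replicate 2 and 6.30 to 6.37 in the others, and TIR2 in total RNA of ubp8Δ was 0.724 in replicate 3 and 0.885 to 0.911 in the others.

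In spt8Δ the change in newly made RNA differed from that in total RNA for 4 genes in limma's test of the difference, by -1.86 for TIR3, -0.90 for SED1, -0.80 for CCW12 and -0.80 for TIP1 on the log2 scale.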

How the results depend on the processing

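Of the single values against WT under settings other than left-out arrays, 1354 kept their direction and side of the threshold, 110 newly passed, 92 no longer passed and 24 reversed. No value reversed without the filter, with the mean of probe sets, with the offset, with only the 2 groups compared, with a replicate block, with undone constants or with consecutive replicates averaged. The cause of the changes below was not tested. Counts are of the 10 genes, in newly made and total RNA. Shares of all genes under these settings were counted only where given above.

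Consecutive replicates averaged, which leaves 1 to 3 samples a group, gave 2 genes in gcn5Δ newly made RNA, 3 in spt20Δ, 1 in spt3Δ, 0 in spt8Δ and ubp8Δ, and in total RNA 0 in spt8Δ, 1 in ubp8Δ and 4 in ubp8Δ gcn5Δ. It gave 1 for spt3Δ against spt8Δ (total), 2 for spt3Δ gcn5Δ against gcn5Δ and against spt3Δ (nascent), 0 and 1 for ubp8Δ gcn5Δ against gcn5Δ, 3 and 4 against ubp8Δ, and 0 for the spt8Δ difference between RNAs and for WT. With only the 2 groups compared, the nascent counts were 3 in gcn5Δ, 1 in spt3Δ, 0 in spt8Δ, 2 for spt3Δ against spt8Δ and 1 for ubp8Δ gcn5Δ against gcn5Δ, and the total counts 0 in spt8Δ, 1 in ubp8Δ, 4 in ubp8Δ gcn5Δ, 4 and 7 for those 2 pairs.

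With the array set as a term, nascent counts were 8 in spt8Δ, 2 in ubp8Δ, 1 for spt3Δ against spt8Δ, 4 for spt3Δ gcn5Δ against gcn5Δ and 4 against the sum. Total counts were 8 in spt3Δ, 6 in spt8Δ, 4 in ubp8Δ, 6 for ubp8Δ gcn5Δ against gcn5Δ and 4 against the sum. Differences between RNAs passed for 5 genes in spt3Δ, 10 in spt8Δ, 1 in ubp8Δ gcn5Δ and 0 in WT. WT arrays of 1 set gave 8 in spt8Δ (nascent), 8 in spt3Δ, 6 in spt8Δ and 4 in ubp8Δ (total). Values that reversed with the term were, for spt3Δ gcn5Δ, SPI1 total 0.16 (also with WT arrays of 1 set), SPI1 against gcn5Δ 1.29 and 0.97, SPI1 against spt3Δ total 1.22, and against the sum in total RNA CCW12 -0.0512, CWP2 -0.66, SED1 -0.15 and SPI1 2.03, with TIR1 1.81 in newly made RNA.

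The replicate block gave 1 gene for the spt3Δ difference between RNAs, 5 in spt3Δ total, 4 in spt8Δ total, 1 for spt3Δ against spt8Δ (nascent), and 5 and 6 for ubp8Δ gcn5Δ against gcn5Δ. Newly made and total RNA arrays of WT and of ubp8Δ deviated together by number, in WT with the difference between the array sets included. The other groups share only a number. The block moved no other count by over 1.5 times. Quantile scaling gave 2 and 0 in spt8Δ and reversed CCW12 in spt20Δ total (0.0276) and ubp8Δ gcn5Δ nascent (0.0196). Undone constants gave 1 for ubp8Δ gcn5Δ against gcn5Δ and 1 against the sum (nascent).

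S. pombe scaling gave, in newly made RNA, 10 in spt3Δ, 1 in spt8Δ, 0 in ubp8Δ, 7 for spt3Δ against spt8Δ, 10 for ubp8Δ gcn5Δ against gcn5Δ and 9 against the sum, and 5 for spt3Δ gcn5Δ against the sum. In total RNA it gave 5 in spt8Δ, 6 for spt3Δ against spt8Δ, 10 for spt3Δ gcn5Δ against gcn5Δ, 5 for ubp8Δ gcn5Δ against gcn5Δ and 8 against the sum. Differences between RNAs passed for 10 in spt3Δ and ubp8Δ gcn5Δ and 9 in spt3Δ gcn5Δ. It reversed these values against WT in newly made RNA: in spt20Δ CCW12 -0.81, CWP2 -0.98, SED1 -0.56, TIP1 -0.34 and TIR2 -0.34, in spt3Δ CCW12 -0.91, CWP2 -0.995 and TIP1 -0.66, in spt3Δ gcn5Δ CCW12 -1.82, SED1 -2.04 and TIR2 -2.28, and in ubp8Δ gcn5Δ SED1 -1.34 and TIR3 -0.48. In total RNA it reversed TIR2 in spt20Δ (-0.0736) and spt8Δ (0.53), TIP1 in spt7Δ (-0.22), and in spt3Δ gcn5Δ CCW12 -0.38, CWP2 -1.53, SED1 -0.38 and TIR2 -1.07. For spt3Δ gcn5Δ against gcn5Δ the reversed values were CCW12 -1.48 and -0.57, CWP1 -2.08 and -1.46, SED1 -2.10 and -1.05, and CWP2 -1.63 in total RNA. Against spt3Δ they were CCW12 -0.91 and -0.60, SED1 -0.59 and -0.47, TIR2 -0.67 and -0.94, and in newly made RNA SPI1 -1.36 and TIR3 -0.29. Against the sum in total RNA they were CCW12 -0.79, CWP1 -1.62, CWP2 -1.78, SED1 -1.14 and TIR3 -1.09. For ubp8Δ gcn5Δ against gcn5Δ they were, in newly made RNA, CWP1 -1.09, SPI1 -1.01, TIR1 -0.96, TIR2 -0.59 and TIR3 -0.86, and in total RNA TIR3 -0.0185. Against ubp8Δ they were SED1 -1.11 and -0.00929, with TIR2 -0.67 and TIR3 -0.64 in newly made RNA, and against the sum in total RNA CWP1 -0.65 and SED1 -0.68. Its differences between RNAs were CWP2 -1.26, SPI1 -1.27 and TIR2 -1.34. For spt3Δ against spt8Δ they were CWP2 -0.99, SED1 -0.85, SPI1 -1.09, TIR2 -1.07 and YGP1 -0.90 in newly made RNA and SED1 -0.60 in total RNA, and TIP1 in spt20Δ against gcn5Δ was -0.0340 in total RNA.

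Leaving out 1 array at a time gave, in newly made and total RNA, 4 to 6 and 7 in gcn5Δ, 6 to 7 in both of spt20Δ, 1 to 3 and 3 in spt3Δ, 6 to 9 and 7 to 9 in spt3Δ gcn5Δ, 0 to 6 and 0 to 4 in spt8Δ, 1 to 3 and 2 in ubp8Δ, 5 to 6 and 6 to 8 in ubp8Δ gcn5Δ, and 7 to 10 in spt7Δ total RNA. For pairs it gave 4 to 5 and 6 to 7 for spt20Δ against gcn5Δ, 0 and 1 for spt3Δ against spt8Δ, 5 to 7 and 6 to 7 for spt3Δ gcn5Δ against gcn5Δ, 3 to 5 and 6 to 8 against spt3Δ, 1 to 4 and 2 for ubp8Δ gcn5Δ against gcn5Δ, 4 to 6 and 7 against ubp8Δ, and 8 for spt7Δ against ubp8Δ gcn5Δ. Against the sum it gave 2 to 3 and 5 to 7 in spt3Δ gcn5Δ and 1 to 5 and 2 to 3 in ubp8Δ gcn5Δ. Differences between RNAs ranged from 1 to 5 in spt8Δ and 4 to 9 in WT, and were 0 in the other strains.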

Other observations

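The 2 arrays labelled as total RNA of spt20Δ whose labels are in doubt gave 9.35 and 9.44 times the array median for CWP1, 3.29 and 3.16 for TIR1, 1.00 and 1.04 for TIR3, and 4.80 and 4.87 for YGP1. They entered no comparison except alternative fits of spt20Δ that kept them.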
